A study of Mus musculus with 6 samples.

Results

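The imprinted Dlk1-Dio3 locus of mouse chromosome 12 was followed through its 5 best known genes, Meg3, Rian, Mirg, Dlk1 and Dio3, in brains of Pofut1 knockout mice and of 2 control groups. Every probe set whose platform annotation gave 1 gene symbol from this list was taken, which yielded 19 of the 45037 probe sets tested and 4 of the 5 genes. Meg3 had 11 probe sets, Rian 4, Mirg 2 and Dlk1 2, and no probe set carried Dio3 as its only symbol. The locus was chosen by the log2 intensities themselves, because every Meg3 probe set was lower in the Flox control arrays, so differences from that group are given here as a description, without a test. Members were tested only between the knockout and the NestinCre control.

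Total RNA from brain was amplified, labelled with biotin and hybridised to 6 one-colour oligonucleotide arrays, 2 per group, all from C57/Bl6 mice aged 2 months. Pofut1 knockout brains had both copies of Pofut1 floxed and carried the Nestin-Cre transgene. NestinCre control brains carried the same transgene with wild-type Pofut1. Flox control brains lacked Cre and had both Pofut1 copies floxed. Pofut1 adds fucose to the EGF-like repeats of Notch receptors and other proteins. The Nestin-Cre transgene drives Cre recombinase in neural progenitors and the cells that descend from them. The knockout and the NestinCre control therefore share the transgene, the knockout and the Flox control share the floxed alleles, and the 2 control groups differ in both.

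The Dlk1-Dio3 locus is an imprinted domain, in which a gene is read mainly from the chromosome of 1 parent. The long non-coding RNAs Meg3, Rian and Mirg come from the maternal chromosome and run in the same direction. Rian is the host of many small nucleolar RNAs, Mirg is the host of a large microRNA cluster, and Meg3 is an abundant nuclear RNA of neurons. The protein-coding genes Dlk1, Rtl1 and Dio3 come mainly from the paternal chromosome. Dlk1 is a membrane protein with EGF-like repeats related to Notch ligands, Rtl1 is a retrotransposon-derived protein needed in placenta and muscle, and Dio3 is the deiodinase that inactivates thyroid hormone. In the RefSeq annotation of build GRCm38.p6 the interval from Dlk1 to Dio3 held 103 genes, of which 61 were microRNAs, 19 small nucleolar RNAs, 16 long non-coding RNAs, 4 pseudogenes and 3 protein-coding genes. Meg3 lies at chr12:109540996-109571729, Rian at chr12:109603945-109661716, Mirg at chr12:109734981-109749458, Dlk1 at chr12:109452485-109463336 and Dio3 at chr12:110279230-110281097. With no genome sequence in use, the place of each probe set within its gene was not analysed here.

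The RefSeq promoter windows of the 3 maternal RNAs, 300 bases each around the annotated start on the plus strand of GRCm38.p6, are printed because these genes make up 17 of the 19 probe sets. Capitals mark matches to TGACGTCA, the cyclic AMP response element, to TATAAA, the TATA box, and to CCAAT, each searched on both strands.
Meg3, chr12:109540746-109541045: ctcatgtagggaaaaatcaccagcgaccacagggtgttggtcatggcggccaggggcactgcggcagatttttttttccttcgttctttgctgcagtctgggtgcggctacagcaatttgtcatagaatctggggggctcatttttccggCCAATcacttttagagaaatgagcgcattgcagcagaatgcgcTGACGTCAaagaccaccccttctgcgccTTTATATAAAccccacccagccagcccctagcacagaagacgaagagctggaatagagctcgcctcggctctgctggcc
Rian, chr12:109603695-109603994: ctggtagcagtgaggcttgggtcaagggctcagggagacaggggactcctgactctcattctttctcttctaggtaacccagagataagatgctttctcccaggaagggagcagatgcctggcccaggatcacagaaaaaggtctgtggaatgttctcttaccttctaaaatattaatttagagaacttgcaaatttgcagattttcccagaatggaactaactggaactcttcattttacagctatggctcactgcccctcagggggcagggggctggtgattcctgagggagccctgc
Mirg, chr12:109734731-109735030: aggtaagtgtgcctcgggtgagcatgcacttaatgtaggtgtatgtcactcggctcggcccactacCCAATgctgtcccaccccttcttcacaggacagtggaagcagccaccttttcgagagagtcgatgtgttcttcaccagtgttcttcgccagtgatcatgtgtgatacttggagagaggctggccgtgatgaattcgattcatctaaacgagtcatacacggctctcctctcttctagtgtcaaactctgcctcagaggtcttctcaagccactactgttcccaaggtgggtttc
The printed Meg3 window held CCAAT at position -100 and TGACGTCA at -57 from the start. It also held TATAAA on the plus strand at -25, which overlaps a match on the minus strand at -29. The Rian window held none of the 3 motifs and the Mirg window held CCAAT at -184. Of 32851 RefSeq promoter windows of the same length, 1.79% held TGACGTCA, 13.6% held TATAAA and 37.4% held CCAAT. The printed Meg3 window had 53.7% G and C with 13 CpG dinucleotides, that of Mirg 51.3% with 10 and that of Rian 49.3% with 0. Meg3 has a window 2 in RefSeq, not printed, which held none of the 3 motifs and had 50.3% G and C with 1 CpG dinucleotide.

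The microRNAs of the locus were not measured on these arrays, and 4 are shown to place them on their host transcripts. Of the 61 microRNA genes in the interval 2 lay within the span of Meg3, 3 within Rian, 10 within Mirg and 46 within none of these. Capitals mark the seed, bases 2 to 8.
mmu-miR-770-3p, in the Meg3 span, chr12:109563744-109563765: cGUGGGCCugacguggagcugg
mmu-miR-370-3p, in the Rian span, chr12:109618305-109618326: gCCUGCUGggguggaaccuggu
mmu-miR-154-5p, in the Mirg span, chr12:109738438-109738459: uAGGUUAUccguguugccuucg
mmu-miR-410-3p, in the Mirg span, chr12:109743764-109743784: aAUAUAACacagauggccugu
These 4 have different seeds. Among the 114 mature microRNAs of the interval there were 104 distinct seeds, so most of them did not share one.

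Several measures of the arrays bear on all values of the locus. The medians of log2 intensity ran from 7.32 to 7.36 over the 6 arrays, and arrays of the same group correlated at 0.9931 to 0.9947 across probe sets, against 0.9849 to 0.9952 between groups. Pofut1 by its brightest probe set, 1443881_at, had log2 intensities of 9.25 and 9.44 in the knockout, 9.84 and 9.77 in the NestinCre control and 9.95 and 9.81 in the Flox control. Both knockout arrays were the lowest, with a difference of -0.46 ± 0.09 (SE) from the NestinCre control and adjusted p = 0.533 by limma. By the Y-linked gene Eif2s3y, knockout replicate 1 and NestinCre control replicate 2 came from males, and the other 4 arrays, both Flox controls among them, from females. All 10 neuronal markers were measured, and their summed intensity was 49374.9 and 51579.7 in the knockout, 50646.8 and 50602.1 in the NestinCre control and 53575.7 and 50648.8 in the Flox control. Of 11 pituitary markers 9 were measured, and their summed intensity was 900.8 and 823.3 in the knockout, 824.9 and 734.8 in the NestinCre control and 1184.6 and 2423.6 in the Flox control. Lhb, Fshb and Tbx19 were below a log2 intensity of 6 on every array, while 4 of the 9 were higher in both Flox control arrays than in the other 4 and 1 was lower. Over all probe sets 13.7% were higher and 12.1% lower in both Flox control arrays. The part of sex and of pituitary tissue in the values of the locus was not tested beyond the values given below.

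In all 11 Meg3 probe sets, both Flox control arrays lay below the knockout and the NestinCre control arrays, the property by which the locus was chosen. Over all probe sets the same order was seen in 5466 of 45037, 12.1%, and among the 7993 with a mean log2 intensity above 10 it was seen in 643, 8.04%. Because the choice used this order, nothing is read from the difference between these shares. The median over the 11 probe sets of the difference from the Flox control was 0.55 in log2 units for the knockout and 0.52 for the NestinCre control, while the medians over all probe sets tested were -0.009 for each. In linear terms the differences are given as ratios of geometric means. The Flox control was at 51.1% to 78.7% of the knockout and at 51.1% to 82.0% of the NestinCre control. In whole brain, fewer cells that make Meg3 and less Meg3 RNA per cell cannot be told apart.

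The brightest Meg3 probe set, 1439380_x_at, gave intensities of 5793.8 and 5359.6 in the knockout, 5486.2 and 5216.6 in the NestinCre control and 4784.2 and 4021.3 in the Flox control. The 4 arrays with the transgene were close together, and the 2 Flox control arrays were lower and further apart. On the log2 scale the knockout mean was 12.44 ± 0.08, the NestinCre control mean 12.39 ± 0.05 and the Flox control mean 12.10 ± 0.18 (SD, n = 2 each). For this probe set Flox control replicate 2 carried much of the distance: without it the NestinCre control stood 0.16 above the Flox control and the knockout 0.22, while without Flox control replicate 1 the differences were 0.41 and 0.47, against 0.29 and 0.35 with both.

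The dimmest Meg3 probe set, 1429257_at, separated the groups most. Its intensities were 1316.8 and 1089.4 in the knockout, 1129.7 and 1271.7 in the NestinCre control and 605.8 and 618.2 in the Flox control. The Flox control arrays agreed closely and sat well below the other 4, which overlapped one another. The log2 difference from the Flox control was 0.97 for the knockout and 0.97 for the NestinCre control.

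Probe set 1426758_s_at was the most even within groups. It gave 2801.2 and 2709.0 in the knockout, 2395.8 and 2395.3 in the NestinCre control and 1547.9 and 1488.3 in the Flox control. Here the 3 groups formed 3 steps without overlap, with the knockout on top. Probe set 1428764_at read 11.91 and 11.61 in log2 units in the knockout, 11.71 and 11.60 in the NestinCre control and 10.98 and 11.06 in the Flox control, so that the knockout and the NestinCre control overlapped and the Flox control stood apart by 0.53 from the nearest other array. Probe set 1436057_at read 12.03 and 11.94 in the knockout, 11.94 and 11.88 in the NestinCre control and 11.44 and 11.42 in the Flox control, again with a clear gap of 0.45. The remaining 6 probe sets differed from the Flox control by 0.41 to 0.62 in the knockout and by 0.33 to 0.70 in the NestinCre control, with both Flox control arrays lowest in each. In 9 of the 11 probe sets the gap between the highest Flox control array and the lowest other array was wider than the largest gap between replicates of any group, the exceptions being 1439380_x_at and 1429256_at.

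**Figure D1:**
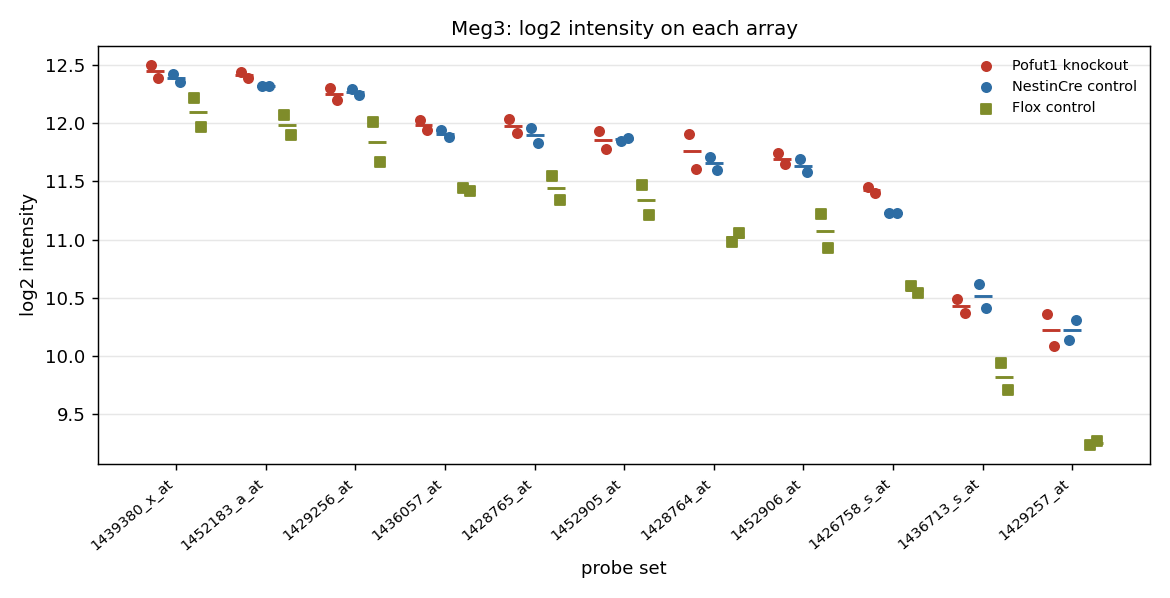
Log2 intensity (vertical axis) of the 11 Meg3 probe sets, ordered from bright to dim, on each array. Points are single arrays and short bars are means of 2, with the Pofut1 knockout on the left, the NestinCre control in the middle and the Flox control on the right. In all 11 the squares of the Flox control lie lowest, from a difference of 0.29 between the control groups for 1439380_x_at to 0.97 for 1429257_at.

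The Meg3 probe sets varied together but not by the same amount. Over the 6 arrays the other 10 correlated with the brightest at r = 0.861 to 0.981, values that share the same 6 libraries and mostly restate the step between groups. The difference between the control groups was larger for dimmer probe sets. Its correlation with mean log2 intensity over the 11 probe sets was -0.95, and that of the knockout minus Flox control difference was -0.82. The median NestinCre control minus Flox control difference was 0.60 for the 8 probe sets with a mean under 12 and 0.33 for the 3 at 12 or above. Probe sets of 1 gene share its RNA, and brightness also depends on the probes, so whether the bright probe sets are compressed was not tested. Replicate 1 was higher than replicate 2 in 11 of the 11 probe sets in the knockout, by a median of 0.11, in 9 in the NestinCre control, by 0.06, and in 9 in the Flox control, by 0.21. Replicates thus differed in 1 direction at most Meg3 probe sets, and by most within the Flox control.

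Rian, the snoRNA host, was lower in both Flox control arrays in 3 of its 4 probe sets. The brightest, 1452899_at, read 12.28 and 12.23 in log2 units in the knockout, 12.50 and 12.16 in the NestinCre control and 12.15 and 12.03 in the Flox control. The Flox control was lowest by a gap of only 0.01, and the 2 NestinCre control arrays were further apart than any pair of group means. The NestinCre control minus Flox control difference of 0.24 became 0.07 without NestinCre control replicate 1 and 0.41 without NestinCre control replicate 2. Probe set 1427580_a_at separated the Flox control more clearly, with 11.17 and 10.98 in the knockout, 11.14 and 11.15 in the NestinCre control and 10.71 and 10.76 in the Flox control. The gap of 0.23 was wider than any gap between replicates there, 0.18 at most. Probe set 1440001_at read 10.31 and 9.95 in the knockout, 9.94 and 10.16 in the NestinCre control and 9.53 and 9.71 in the Flox control, lower in the Flox control but with replicates 0.36 apart in the knockout. The remaining probe set, 1428055_at, had 10.70 and 10.34 in the knockout, 10.50 and 10.60 in the NestinCre control and 10.60 and 10.46 in the Flox control, and its 3 groups overlapped. The probe sets of Rian therefore disagreed, with NestinCre control minus Flox control differences of 0.24, 0.41, 0.43 and 0.02.

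Mirg, the microRNA host, was lower in both Flox control arrays in both of its probe sets. Probe set 1457030_at read 9.82 and 9.81 in the knockout, 9.84 and 9.58 in the NestinCre control and 9.34 and 9.22 in the Flox control. The knockout arrays were nearly equal, and by geometric means the Flox control was at 69.1% of the knockout and 74.4% of the NestinCre control. Probe set 1440097_at, much dimmer, read 7.41 and 7.22 in the knockout, 7.36 and 7.16 in the NestinCre control and 6.84 and 6.93 in the Flox control. The Flox control stood 0.23 below the nearest other array, and by geometric means it was at 74.2% of the knockout and 77.2% of the NestinCre control. Over Rian and Mirg together, 5 of 6 probe sets had both Flox control arrays lowest, beside 12.1% of all probe sets and 8.04% of those with a mean log2 intensity above 10. Both genes belong to a locus chosen on that contrast, so nothing is read from this count. At the brightest probe set per gene the NestinCre control minus Flox control difference was 0.43 for Mirg, 0.29 for Meg3 and 0.24 for Rian.

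Dlk1, the paternally read neighbour of Meg3, did not follow the maternal RNAs in either probe set. Probe set 1442724_at read 10.90 and 10.82 in the knockout, 10.63 and 10.83 in the NestinCre control and 10.52 and 10.82 in the Flox control. The groups overlapped, and Flox control replicate 2 gave the same rounded value as knockout replicate 2. Probe set 1449939_s_at read 7.04 and 7.43 in the knockout, 7.45 and 7.34 in the NestinCre control and 7.47 and 7.39 in the Flox control, with the 2 knockout arrays further apart than the groups. The NestinCre control minus Flox control differences were 0.06 and -0.03, and the knockout minus Flox control differences 0.19 and -0.19, opposite in sign between the probe sets. Dio3 and Rtl1 had no probe set that named them alone and were not analysed here. The antisense partner Dio3os, by 1435121_at, stayed between 5.49 and 5.57 on all 6 arrays, near the lowest log2 value on any array, 5.25.

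**Figure D2:**
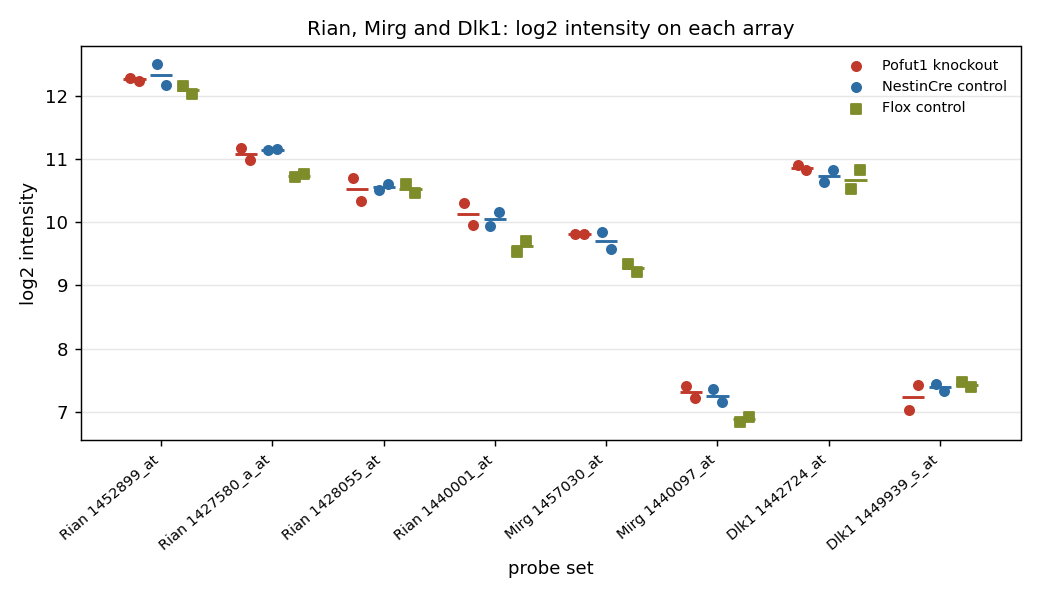
Log2 intensity (vertical axis) of the probe sets of Rian, Mirg and Dlk1 on each array. Points are single arrays and short bars are means of 2, with the Pofut1 knockout left, the NestinCre control in the middle and the Flox control right. Rian 1428055_at and both Dlk1 probe sets overlap between groups, and the other 5 have the Flox control lowest.

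The knockout and the NestinCre control both carry the transgene. They differ in the floxed Pofut1 alleles and in the loss of Pofut1, which cannot be told apart here. The choice of genes used how their arrays stood to the Flox control, not the difference between these 2 groups. By limma with Benjamini-Hochberg adjustment over all 45037 probe sets, 0 of the 19 locus probe sets had an adjusted p under 0.05, as did 0 of all probe sets, 0%. At an unadjusted p under 0.05 there was 1 of 19, against 2617 of 45037 probe sets, 5.81%. That probe set was Meg3 1426758_s_at, higher in both knockout arrays, with a difference of 0.20 ± 0.06 (SE, 95% interval 0.06 to 0.34) and adjusted p = 0.687. The 11 Meg3 probe sets had a median difference of 0.06, beside -0.001 over all probe sets. Of the 11, 7 were above 0, beside 49.6% of all probe sets. Both knockout arrays were above both NestinCre control arrays in 2 of 11, 1452183_a_at and 1426758_s_at, and in 16.4% of all probe sets. The brightest Meg3 probe set differed by 0.06 ± 0.10 (SE, interval -0.21 to 0.33), so a change of that order in either direction could not be seen with 2 arrays per group. Across the 11 Meg3 probe sets the intervals ran from -0.39 to 0.40.

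None of the Rian, Mirg or Dlk1 probe sets approached the threshold in that comparison, the smallest unadjusted p being 0.405 for Rian, 0.355 for Mirg and 0.315 for Dlk1. The 4 Rian differences ranged from -0.08 to 0.08, and that of the brightest probe set had an interval of -0.40 to 0.24. For Mirg 1457030_at the difference was 0.11 with an interval of -0.16 to 0.37. For Dlk1 the brighter probe set differed by 0.13 ± 0.13 (SE, interval -0.21 to 0.46) and the dimmer by -0.16 ± 0.14 (interval -0.52 to 0.21). Every one of these 8 intervals included 0, with adjusted p = 1.

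**Figure D3:**
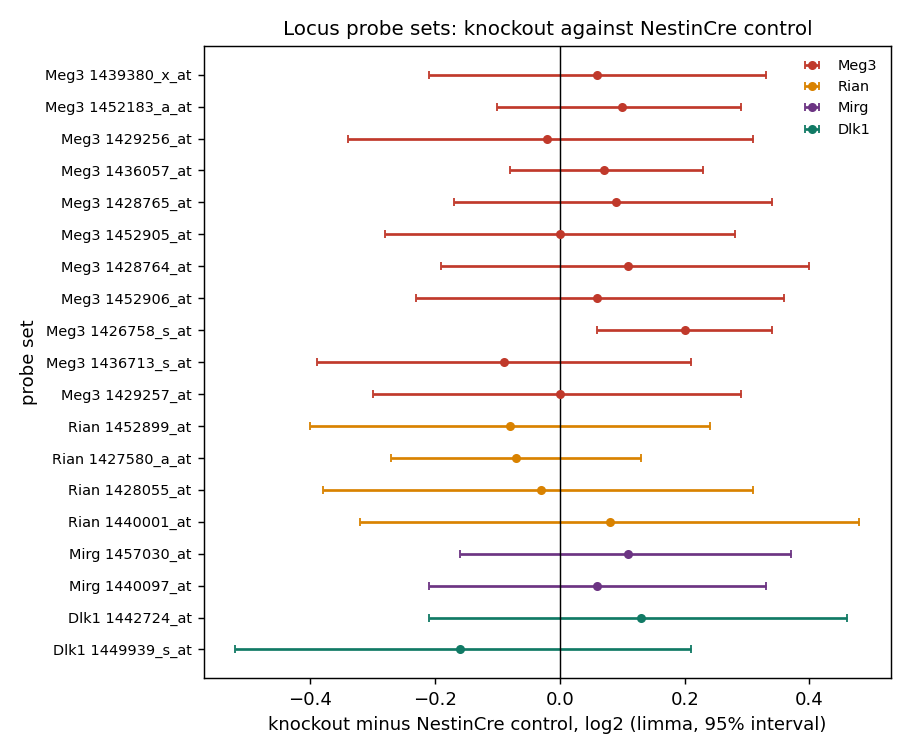
Knockout minus NestinCre control difference in log2 units (horizontal axis) for the 19 locus probe sets, ordered by gene and brightness. Points are limma estimates from 2 arrays per group and bars are 95% intervals. Only the interval of Meg3 1426758_s_at, 0.06 to 0.34, leaves out 0.

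Along the chromosome the lower Flox control values were seen at the maternal RNAs and not at most genes on either side. The locus was chosen on this contrast, so nothing is read from that difference. At the brightest probe set of Rian the Flox control was lowest by a gap of only 0.01. Of the 103 genes in the interval 6 were measured, namely the 4 members, Dio3os and 3110009F21Rik, a long non-coding RNA of unstated role. Taking the brightest probe set per gene, the 10 nearest measured genes on each side had a median NestinCre control minus Flox control difference of -0.05, in a range of -0.40 to 0.12, and a median knockout minus Flox control difference of -0.08, in a range of -0.23 to 0.21. Both Flox control arrays were lowest in 2 of these 20 genes, the dim Gm19605 and B930059L03Rik, with 0.12 each between the controls. They were highest in 2, Gm33628 and Ppp2r5c, a regulatory subunit of protein phosphatase 2A. Over all probe sets they were lowest in 12.1% and highest in 13.7%, so these counts are not read as a trait of the neighbours. The widest differences between the controls were -0.40 for Wdr25 and -0.19 for Evl, a regulator of actin filaments, both opposite in sign to Meg3 but with overlapping arrays.

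The dim 3110009F21Rik did not behave like Meg3. It read 6.52 and 5.93 in log2 units in the knockout, 5.40 and 5.73 in the NestinCre control and 5.43 and 5.42 in the Flox control. Both knockout arrays were above the other 4, while the 2 control groups overlapped. Its knockout minus NestinCre control difference was 0.65 ± 0.22 (SE), with adjusted p = 0.809 by limma.

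**Figure D4:**
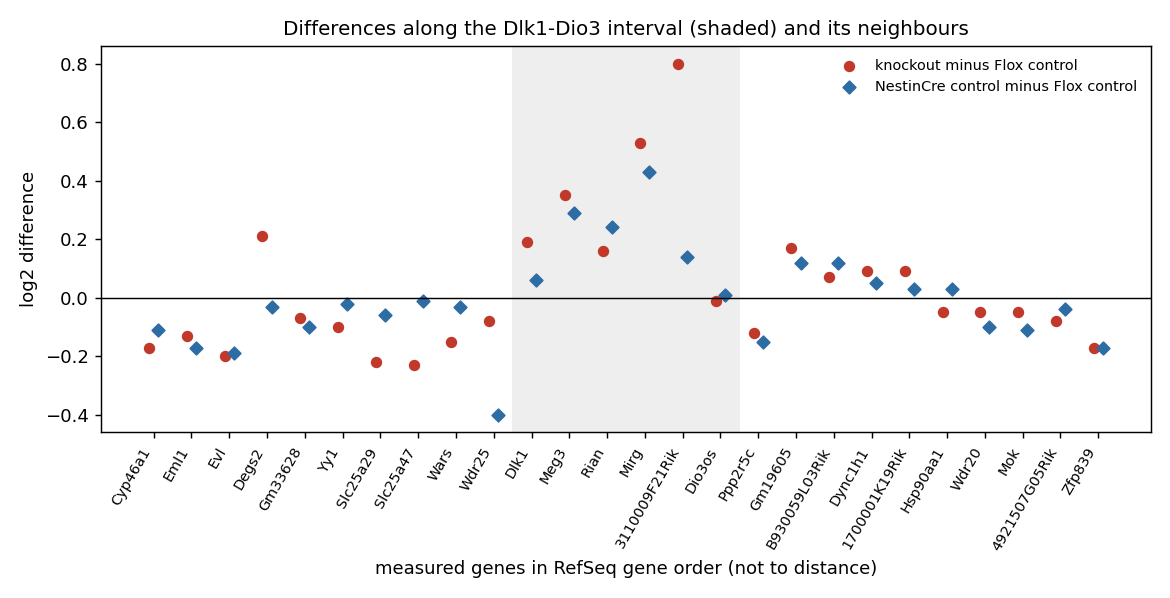
Log2 difference from the Flox control (vertical axis) for the brightest probe set of each measured gene in RefSeq order along chromosome 12, not to distance. Circles are the knockout minus Flox control, diamonds the NestinCre control minus Flox control, and shading marks the Dlk1-Dio3 interval. Meg3, Rian and Mirg stand at 0.24 to 0.43 between the controls, while the 20 genes outside range from -0.40 to 0.12. The locus was chosen on this contrast, so nothing is read from that difference.

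Imprinted genes elsewhere in the genome differed from the Flox control in both directions. Of 54 listed genes 47 were measured, with median differences of -0.01 for the knockout minus NestinCre control, -0.05 for the knockout minus Flox control and -0.03 for the NestinCre control minus Flox control. Both Flox control arrays were lowest in 5 of the 47 and highest in 8 at the brightest probe set per gene. Over all 116 probe sets of these genes they were lowest in 26, 22.4%, and highest in 10, 8.62%, beside 12.1% and 13.7% of all probe sets tested, so the balance turned with the probe sets counted. By limma 0 of 47 passed the adjusted threshold in any of the 3 comparisons, where 0%, 0.00444% and 0% of all probe sets did. At an unadjusted p under 0.05, 1 was higher and 3 were lower in the knockout than in the NestinCre control, where 3.20% and 2.61% of all probe sets were. Against the Flox control 2 were higher and 6 lower in the knockout, beside 8.29% and 7.65% of all probe sets, 15.9% together. In the NestinCre control 2 were higher and 6 lower than in the Flox control, beside 5.20% and 5.22%, 10.4% together. Airn, an imprinted antisense long non-coding RNA, had by 1451634_at 9.33 and 9.06 in the knockout, 9.01 and 9.12 in the NestinCre control and 8.35 and 8.60 in the Flox control. Its Flox control arrays were lowest, by 0.59 between the controls, but its 5 probe sets disagreed. Both Flox control arrays were also lowest at 1456139_at, by 0.61, and at 1446095_at, by 0.17, whereas they were highest at 1457337_at, with -0.34 between the controls, and overlapped the others at 1436627_at, with -0.15. Peg10, a retrotransposon-derived gene, differed by 0.46 in the same direction, and the amino acid transporter Slc38a4 and the transporter Slc22a18 by -0.52 and -0.37 in the other. For Peg10 the gap between the Flox control and the nearest other array was 0.00, with NestinCre control replicates 0.59 apart. The other Slc22a18 probe set, 1427531_a_at, differed by -0.09 with overlapping arrays. Between the knockout and the NestinCre control the smallest p belonged to Dcn, the matrix proteoglycan decorin, at 0.50 with adjusted p = 0.642. Nnat, a small membrane protein of neurons, differed by -0.24, Mkrn3, a RING finger protein, by -0.22 and Mcts2, a retrogene, by -0.22, with adjusted p from 0.653 to 0.815.

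The proteins that keep imprints in place gave no adjusted call either. All 16 listed were measured, with median differences of 0.07 for the knockout minus NestinCre control, 0.09 for the knockout minus Flox control and 0.03 for the NestinCre control minus Flox control. At an unadjusted p under 0.05, 1 of 16 was higher and 0 lower in each of the 3 comparisons, where the shares of all probe sets were 3.20% higher and 2.61% lower for the knockout against the NestinCre control, 8.29% and 7.65% for the knockout against the Flox control, and 5.20% and 5.22% between the controls. Zfp57, the zinc finger protein that holds methylation at imprinted control regions, read 8.09 and 8.10 in the knockout, 7.80 and 7.94 in the NestinCre control and 7.71 and 7.60 in the Flox control. Its arrays formed 3 steps in that order, with a knockout minus NestinCre control difference of 0.22 and adjusted p = 0.809 by limma. The de novo methyltransferase Dnmt3a differed by 0.13 between the controls with the Flox control lowest, the maintenance methyltransferase Dnmt1 by 0.20 and the cofactor Dnmt3l by -0.40, the last 2 with overlapping arrays.

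Thyroid hormone genes, listed because Dio3 acts on that hormone, had 11 of 13 members measured and 0 adjusted calls in the 3 comparisons by limma. At an unadjusted p under 0.05, 0 were higher and 2 lower in the knockout than in the NestinCre control, beside 3.20% and 2.61% of all probe sets. In the knockout 0 were higher and 2 lower than in the Flox control, beside 8.29% and 7.65%, and 0 passed in either direction between the controls, beside 10.4%. Slco1c1, a thyroid hormone transporter of brain vessels and astrocytes, read 10.95 and 10.81 in the knockout, 11.22 and 11.30 in the NestinCre control and 11.44 and 11.25 in the Flox control. Both knockout arrays were lowest, with a difference of -0.38 from the NestinCre control and adjusted p = 0.642. Nrgn, a postsynaptic calmodulin-binding protein known as a thyroid hormone target, differed by -0.32 with adjusted p = 0.735. Dio2, the deiodinase that activates the hormone, differed by -0.04 against the NestinCre control, and the receptor gene Thra by -0.08.

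Lower Flox control values were also present in long non-coding RNAs outside the locus, and their part in the values of Meg3 was not tested. The list of these RNAs, which holds Malat1 and Gas5, was drawn up with earlier results of these data known. Nothing is therefore read from how its counts stand to the shares of all probe sets. Of 18 listed RNAs 15 were measured, with 49 probe sets, of which 21 had both Flox control arrays lowest and 4 had them highest, beside 12.1% and 13.7% of all probe sets. At the brightest probe set per gene the median NestinCre control minus Flox control difference was 0.18, with 13 of 15 above 0, and the knockout minus Flox control median was 0.08, with 11 of 15 above 0. Over all probe sets tested both of these medians were -0.009, with 46.4% above 0 for the first difference and 46.7% for the second. The knockout minus NestinCre control median of the listed RNAs was -0.04. By limma 0 of 15 passed the adjusted threshold in any comparison. At an unadjusted p under 0.05, 6 were higher and 1 lower in the NestinCre control than in the Flox control, beside 5.20% and 5.22% of all probe sets, and 6 higher and 3 lower in the knockout than in the Flox control, beside 8.29% and 7.65%. In the knockout 0 were higher and 1 lower than in the NestinCre control, beside 3.20% and 2.61%. The last was Pantr1, at -0.32 with adjusted p = 0.731.

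Among these RNAs Rmst, a regulator of neural fate, had the widest difference between the controls, 0.80 at a dim probe set, followed by Neat1, the scaffold of paraspeckles. Neat1 1428083_at read 10.84 and 10.52 in the knockout, 10.82 and 10.59 in the NestinCre control and 10.17 and 10.17 in the Flox control, so the Flox control mean lay 0.54 below that of the NestinCre control. Miat, a nuclear RNA of neurons, differed by 0.37 in the same direction and Pvt1 by -0.29 in the other. Norad, which binds Pumilio proteins, and the imprinted Snhg14 differed by 0.08 and 0.25 with overlapping arrays. Malat1 and Gas5 are named after their values were seen. Malat1, a nuclear speckle RNA, had both Flox control arrays lowest in 7 of 7 probe sets, with differences of 0.17 to 0.73 between the controls and 0.28 to 0.99 for the knockout minus Flox control. The adjusted p by limma was 0.376 to 0.584 for the first and 0.110 to 0.302 for the second. Malat1 was picked after these differences were seen, so nothing is read from these p-values. Gas5, a snoRNA host like Rian, had both lowest in 4 of 4, with 0.19 to 0.56 between the controls. Within Malat1 the 3 probe sets with a mean log2 intensity above 12 had 0.17 to 0.25 and the 4 dimmer ones 0.43 to 0.73.

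**Figure D5:**
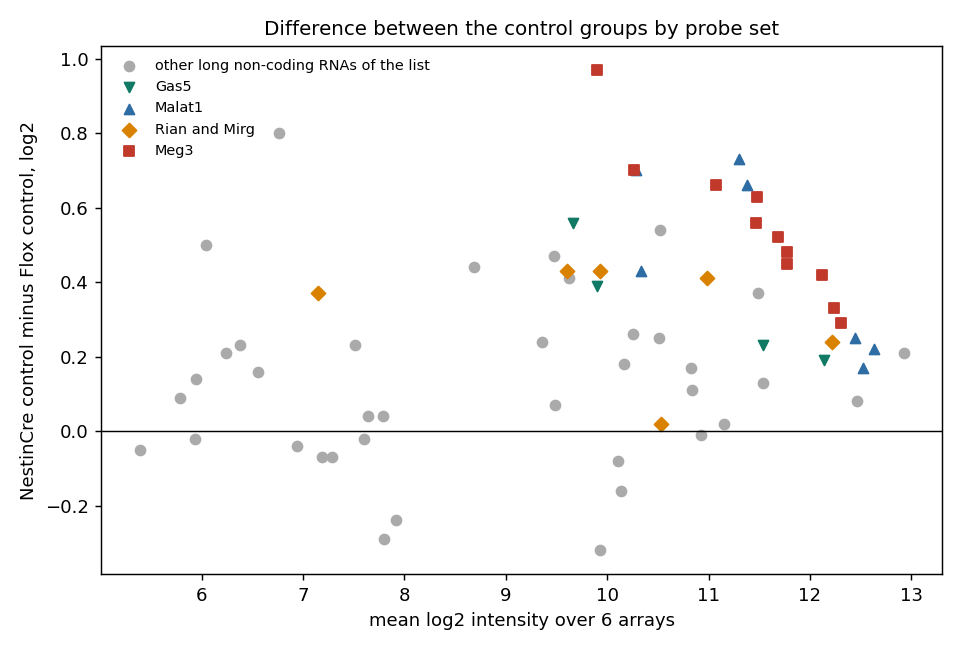
NestinCre control minus Flox control difference in log2 units (vertical axis) against mean log2 intensity over 6 arrays (horizontal axis) for probe sets of Meg3, Rian and Mirg, Malat1, Gas5 and the other listed long non-coding RNAs. Each point is 1 probe set, from means of 2 arrays per group. The 11 Meg3 squares run from 0.97 at the dim end to 0.29 at the bright end, and the 7 Malat1 triangles from 0.17 to 0.73.

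The 3′ minus 5′ difference of the beta-actin control probe sets, a measure of RNA integrity and of the reach of the labelling, was 1.19 and 1.17 in log2 units in the knockout, 1.08 and 1.15 in the NestinCre control and 1.41 and 1.04 in the Flox control. That of Gapdh was 0.65 and 0.71 in the knockout, 0.65 and 0.62 in the NestinCre control and 0.74 and 0.65 in the Flox control. Flox control replicate 1 had the highest value of both, and replicate 2 had the lowest of beta-actin and lay within the range of the other arrays for Gapdh. The part of RNA integrity and labelling in the values of the locus was not tested. With sex as a term in the fit the median over the 11 Meg3 probe sets was 0.55 for the knockout minus Flox control and 0.48 for the NestinCre control minus Flox control. The absence of the transgene, and anything else that set the 2 Flox control brains apart from the other 4, cannot be told apart.

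The genes most like Meg3 over the 6 arrays were taken by correlation with 1439380_x_at, among 3842 probe sets brighter than the median with an SD of at least 0.2. Each gene is given by its best-correlating probe set, so its other probe sets may differ. Miat came first at r = 0.997, then Gas5 at 0.990, Ncl at 0.989, Akap8 at 0.978, Pfas at 0.976, Mndal at 0.976, 4933439C10Rik at 0.968 and Cacna1a at 0.966. Ncl encodes the nucleolar protein nucleolin, Akap8 a nuclear anchoring protein, Pfas a purine synthesis enzyme and Cacna1a a presynaptic calcium channel. Miat 1455325_at read 11.71 and 11.56 in the knockout, 11.65 and 11.54 in the NestinCre control and 11.38 and 11.07 in the Flox control, the same order of arrays within each group as Meg3. Ncl 1442404_at read 9.12 and 8.93 in the knockout, 9.03 and 8.96 in the NestinCre control and 8.75 and 8.50 in the Flox control. With 6 arrays, 82 of the 3842 probe sets correlated above 0.9 and 73 below -0.9, so many patterns of this kind were present in both directions. Within the locus Mirg 1457030_at correlated at 0.93 and 1440097_at at 0.835, the Rian probe sets at 0.276 to 0.816, and the 2 Dlk1 probe sets at 0.13 and -0.422.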

How the data were processed

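The deposited table gives 1 intensity per probe set and array, on a linear scale. The submitters' processing notes name GCOS and RMA, without version, role or order, and no batch or scan date was used. RMA-type processing subtracts background, gives arrays a common distribution and so removes shifts shared by most probe sets. From the deposited intensity the log2 was taken with no further scaling. Of 45101 probe sets 64 controls were left out. The platform annotation gave 1 symbol for 34945 of the 45037 others, several for 932 and none for 9160, and 34741 of the first matched RefSeq by gene ID. Only single-symbol probe sets were named.

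limma 3.58.1 in R 4.3.3 was fitted with 1 mean per group over all 6 arrays, so that groups shared the spread, with eBayes and Benjamini-Hochberg adjustment over all probe sets, and was tested on simulated data. The labels do not say whether replicates are separate mice. By Eif2s3y the replicates differed in sex within the knockout and within the NestinCre control, so in these groups they came from different mice. The Flox control arrays were all from females, and whether they came from separate mice was not tested. The p-values measure only the spread between these samples, and 2 arrays per group limit the precision. The members and the gene lists were chosen with earlier results of these data known. Genes outside the locus were named from the 4 smallest p for the knockout versus NestinCre control and the 4 largest NestinCre control minus Flox control differences per list. Not all picks are described: Hr, Klf9, Ctcf, Dppa3 and Eed are left out. Neighbours were named by the largest differences, and Meg3-like genes as the 8 with the highest correlation. Where 1 value per gene was needed the brightest probe set was used, except for the Meg3-like genes. Each of those is given by its eligible probe set with the highest correlation. Sequences and positions are from RefSeq tables of GRCm38.p6. Alternatives tried were repeated quantile normalization, median centring, a brightness filter, an intensity trend and robust eBayes, the compared groups alone, a replicate block, the brightest probe set per gene, an offset of 16, control probe sets kept, sex as a term and leaving out each array.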

Additional observations from a re-analysis of the deposited data

How the results depend on the processing

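Counts of calls over all probe sets changed with the processing. Both Flox control arrays stayed lowest in 11 of 11 Meg3 probe sets with quantile normalization repeated and with median centring. The brightness filter, the offset and leaving out an array also left 11, but these cannot undo this order. The brightest probe set per gene leaves 1 by construction, with 0.35 for the knockout minus Flox control and 0.29 for the NestinCre control minus Flox control. The remaining alternatives did not count it again. Because the locus was chosen by this order, nothing is read from its persistence. Leaving out each array moved the Meg3 median between 0.48 and 0.65 for the knockout minus Flox control, 0.41 and 0.60 for the NestinCre control minus Flox control, and 0.00 and 0.12 for the knockout minus NestinCre control. Probe sets called between the knockout and the Flox control, 2 as reported, numbered 0 with quantile normalization, 9 with centring, 23 among bright probe sets, 162 with a trend, 325 with trend and robust eBayes, 0 with the compared groups alone, 20 with the brightest probe set per gene, 0 with the offset, 0 with sex and 0 without any 1 array. Between the knockout and the NestinCre control, 0 as reported, they numbered 9 with centring, 11 among bright probe sets, 39 with a trend, 72 with trend and robust eBayes, 1 with the compared groups alone, 10 with the brightest probe set per gene, and 0 to 1 leaving out an array, 1 without either Flox control array. Between the controls, 0 as reported, they numbered 1 with a trend, 6 with trend and robust eBayes, and 0 to 2 leaving out an array, 2 without Flox control replicate 1. Same-numbered samples deviated together at r = -0.31, -0.237 and 0.189. No pairing by number was evident from these values, which cannot exclude one. With the replicate block 0 probe sets were called between the knockout and the Flox control. The knockout minus NestinCre control difference of the brightest probe set ran from -0.24 to 0.09 for Rian and from -0.02 to 0.23 for Mirg over the alternatives, without a call. Differences smaller than the printed intervals could not be resolved with 2 arrays per group.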
